A study of Glycine max with 11 samples.

Results

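Final drying of the soybean seed was followed in 5 of the 11 libraries of the series, chosen by stage from the sample labels. Mature dry seeds at stage 9, 77 days after flowering, gave 2 libraries, which were set against 1 library each of seeds at stages 8.1, 8.2 and 8.3, at 71, 73 and 74 days. All 5 came from whole, freshly harvested seeds of the cultivar BRS284, a genotype with no transgene or mutation named in the labels, grown in the field and frozen in liquid nitrogen without any drying after harvest. The comparison asks which transcripts still changed in level while the seed lost its last water on the plant. Each library pooled seeds of many plants, and the paired libraries are called biological replicates by the study. Nothing states whether the stage 9 libraries came from separate plants or extractions, so p-values measure only the spread between these samples, which may in part be technical.

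A maturing legume seed fills with protein and oil, acquires the ability to survive drying, and then dries while still in the pod. In that last period it holds many transcripts of late embryogenesis abundant (LEA) proteins, oleosins and heat shock proteins, and the mature seed keeps stored transcripts until it is wetted. Small heat shock proteins hold unfolding proteins in a form that the larger chaperones HSP70 and HSP101 can refold. Heat stress transcription factors (HSFs) bind the promoters of heat shock genes, and in sunflower and Arabidopsis HSFA9 is known as the member of developing seeds. In bulk RNA of whole seeds, fewer cells of a type and less RNA per cell cannot be told apart.

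The heat shock genes carry most of what follows, and several of them have quantitative PCR primers designed by the study. These primers are shown because they carry the names used below for single members among several near-identical soybean copies. They stand 5′ to 3′ in the order forward and reverse, for a pair of class II small heat shock proteins on chromosomes 17 and 14, the plastid protein HSP21 on chromosome 8 and the factor HSFA6B on chromosome 3.
HSP 17.6a forward: acgaaagagggacgaaga
HSP 17.6a reverse: cattctcaggcagcacaa
HSP 17.6b forward: tgcggatgtgaaggaatatc
HSP 17.6b reverse: aagcacgttgtcgtcttc
HSP 21 forward: aacatgctggtggtgaag
HSP 21 reverse: agggctatcctgtggttat
HSFA6B forward: gagtgtcagagttggaagtg
HSFA6B reverse: ccagcctctcttgtgattg
HSP 17.6a is Glyma.17G224900, HSP 17.6b is Glyma.14G100000, HSP 21 is Glyma.08G318900 and HSFA6B is Glyma.03G157300, by the primer table. A legend in the study gives the neighbouring Glyma.14G099900 in place of Glyma.14G100000, so which of these neighbours the primers address is uncertain.

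The stage 9 libraries held 26457357 and 21097336 counts, against 13392050, 19621133 and 22707980 at stages 8.1, 8.2 and 8.3. Levels below are normalized counts, that is, counts divided by size factors computed over all 11 libraries, and they compare libraries within a gene, not genes with each other. Over 14781 genes whose mean level was at least 100, the standard deviation of the log2 ratio was 0.188 between the stage 9 libraries. It was 0.342 and 0.339 for the stage 9 libraries against stage 8.3, 0.548 and 0.578 against stage 8.2, and 0.561 and 0.582 against stage 8.1. Stage 8.3 was thus the nearest to mature seed, while stages 8.1 and 8.2 also lay far from each other, at 0.51. Among the markers of the tissue, LEA and seed maturation proteins had a summed level of 216188 and 252041 at stage 9, against 196999.8, 94299 and 196165 at stages 8.1, 8.2 and 8.3. Nuclear photosynthesis genes, the markers of green tissue, summed to 2075 and 2288 at stage 9, against 1920.3, 2039.7 and 3152 at stages 8.1, 8.2 and 8.3. The stage 8.2 library stood apart by its plastid-like genes, whose best Arabidopsis match lies in the plastid genome, with a summed level of 3915 and 3902 at stage 9, against 3650.4, 20121 and 2190.1 at stages 8.1, 8.2 and 8.3. Lists and most genes described as lowest or highest at stage 8.2 have their log2 fold change over the 3 earlier stages given with and without it.

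A gene was called when the fit used gave a change of at least 2-fold, a log2 fold change of at least 1 in size, at a Benjamini-Hochberg adjusted p under 0.05. In the edgeR test of the 5 libraries as 2 groups, 26110 genes were tested and 0% were called in either direction, with a smallest adjusted p of 0.518. At an unadjusted p under 0.05 stood 1108 higher and 1315 lower genes, 4.24% and 5.04% of those tested, or 9.28% together. DESeq2 on the same 5 libraries called 31 higher and 18 lower, 0.157% and 0.091% of 19776 genes and 0.248% together. In this design the spread within the earlier group also holds the differences between stages 8.1, 8.2 and 8.3.

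A second edgeR fit gave each stage its own coefficient over all 11 libraries, so that the spread came from the replicate pairs of stages 7.2, dried 7.2 and 9 alone, and the single libraries were assumed to vary like these pairs. It set stage 9 against the mean of the fitted log2 levels of the 3 earlier stages, where a single low library weighs more than in the 2-group test. It called 113 genes higher and 6 lower, 0.327% and 0.0174% of 34577, or 0.344% together. In the 2-group test, which compares mean levels, the log2 fold changes of these 113 genes went down to 0.18. The count of calls depended on single libraries. It was 0 higher and 0 lower without stage 8.1, 41 and 1 without stage 8.2, 304 and 67 without stage 8.3, 4 and 0 without replicate 1 of stage 9, and 0 and 0 without replicate 2. It was 48 and 0 with either fresh library of stage 7.2 left out, and 496 and 226 or 496 and 209 without 1 of the dried libraries, while leaving out stage 7.1 or 7.3 gave 108 and 7 or 113 and 6. The dried pair of stage 7.2 differed by 0.626 on the scale above, against 0.229 for the fresh pair of that stage. After these values had been seen, the same fit was made on the 9 freshly harvested libraries without the dried seeds. Its spread came from the fresh stage 7.2 pair and the stage 9 pair alone, and its p-values and counts rest on the single libraries varying as little. Against 0.191 in the 11-library fit, the common biological coefficient of variation, a measure of that spread, was 0.0856 in this fit. There 497 genes were called higher and 245 lower, 1.44% and 0.712% of 34410 or 2.16% together, and all 113 genes of the 11-library fit were among the higher ones. With each of the 9 libraries left out in turn, 351 to 848 genes were called higher and 36 to 662 lower. The lowest counts came without replicate 1 of stage 9 and the highest without stage 8.3, and leaving out stage 8.2 gave 383 higher and 142 lower. Below, the 2-group test, the 11-library fit and the fresh-seed fit are named each time, and fold changes with standard errors come from the 2-group test unless said otherwise. Each fit had its own estimate and standard error. For the small heat shock gene Glyma.04G054400 these were 2.39 ± 0.90 in the 2-group test and 3.25 ± 0.44 in the 11-library fit.

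**Figure D1:**
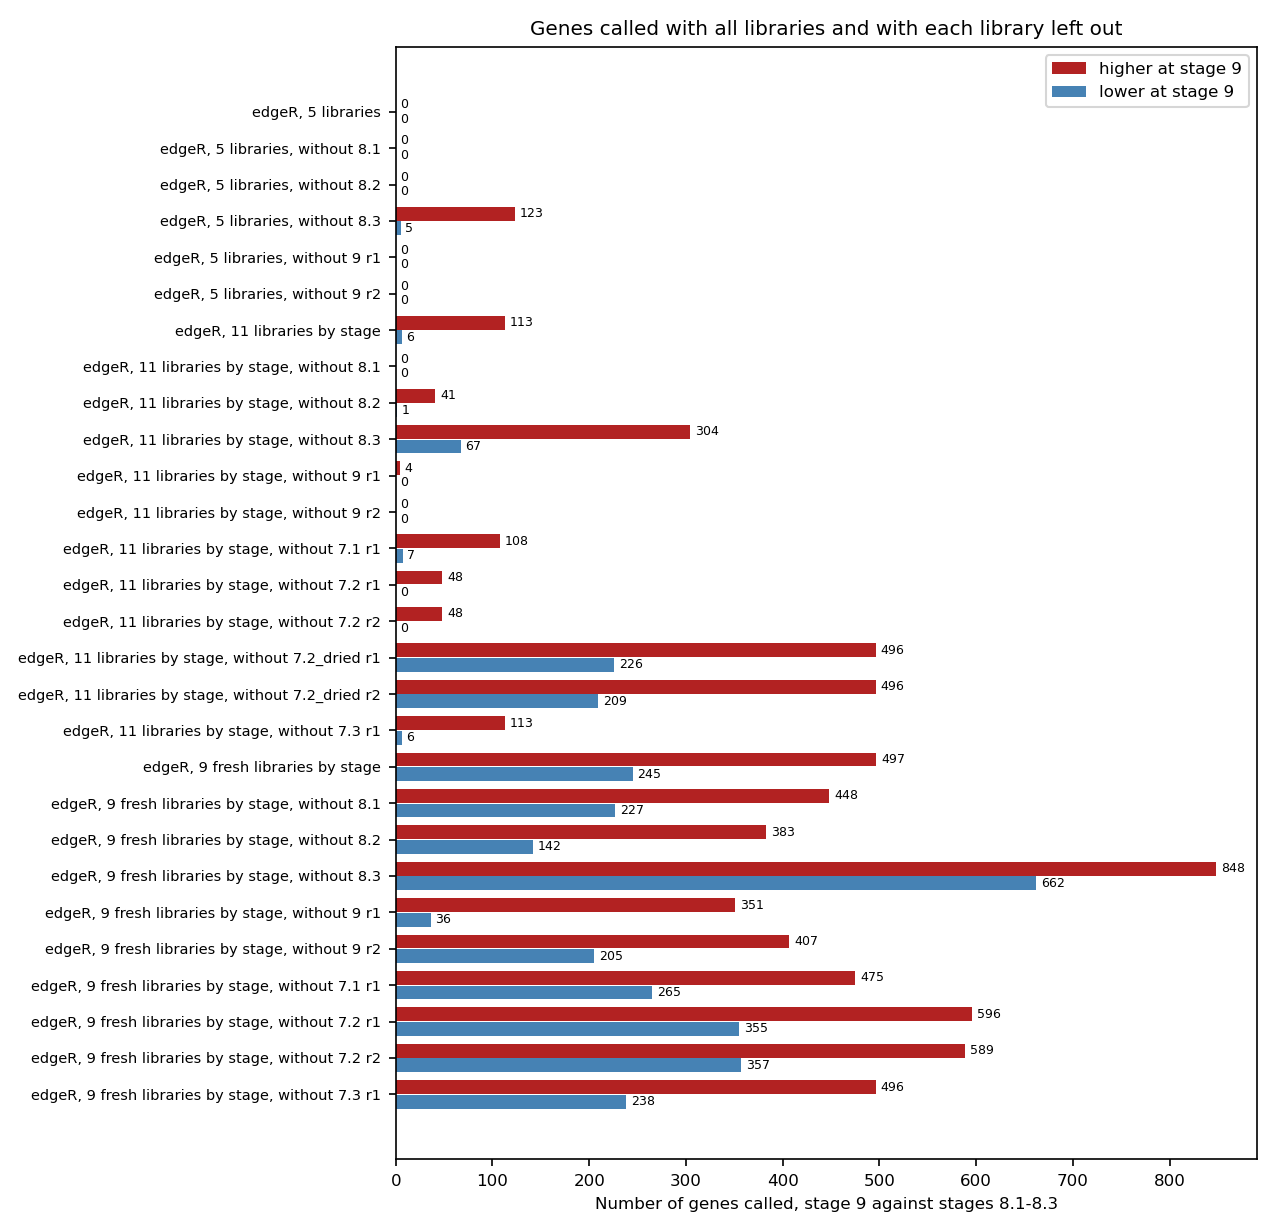
Number of genes called higher (red) and lower (blue) at stage 9 against stages 8.1 to 8.3 in the 3 edgeR fits, each with all its libraries and with each of them left out in turn (r1 and r2 are the replicates). The 2-group fit of 5 libraries called genes only without stage 8.3 (123 higher and 5 lower), and the fit of 9 freshly harvested libraries called at least 351 higher genes with any 1 of its libraries left out.

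Small heat shock proteins made up the clearest group. Of 28 tested, 27 had a positive log2 fold change in the 2-group test, with a median of 1.66 beside -0.02 over all genes tested. Both stage 9 libraries lay above all 3 earlier libraries for 22 of the 28 and below them for 1, beside 15.2% above and 15.5% below over all genes. None was called in the 2-group test, where 13 had an unadjusted p under 0.05 in the higher direction and 1 in the lower. The 11-library fit called 19 higher and 0 lower, beside 0.327% and 0.0174% of all genes. The count of 19 was 0 without stage 8.1 or without replicate 2 of stage 9, 3 without replicate 1, 10 without stage 8.2, 21 without stage 8.3, 9 with either fresh library of stage 7.2 left out, and 23 or 24 without 1 of the dried libraries. The fresh-seed fit called 23, beside 1.44% of all genes, and 22 to 26 with each of its 9 libraries left out in turn. DESeq2 on 5 libraries called 2. Of these genes, 27 owe their names to a table that the study chose on the stage 9 libraries, so the list is not independent evidence of its direction.

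The class II cytosolic proteins had the steepest profiles. HSP17.6b, Glyma.14G100000, had 848 and 998 normalized counts at stage 9, against 28.8, 101 and 275 at stages 8.1, 8.2 and 8.3. Its log2 fold change was 2.75 ± 0.67 (SE) in the 2-group test. The adjusted p was 0.518 in that test, 0.00232 in the 11-library fit and 1.58e-09 in the fresh-seed fit. Every step was upward, and the stage 9 libraries lay close together above the rest. Its neighbour Glyma.14G099900 had 2315 and 2438 at stage 9 against 17.6, 217 and 938 at stages 8.1, 8.2 and 8.3, a log2 fold change of 2.60 ± 1.05. Reads of such near-identical neighbours could be split between them, so their separate values are uncertain. HSP17.6a, Glyma.17G224900, was scarcer, with 176 and 272 normalized counts at stage 9, against 0, 3 and 41.3 at stages 8.1, 8.2 and 8.3. Its log2 fold change of 3.82 ± 0.91 rests on few counts in the earlier libraries, as stage 8.1 held no read. Glyma.04G054400 had 3985 and 4819 normalized counts at stage 9, against 91.1, 600.2 and 1829.9 at stages 8.1, 8.2 and 8.3, and Glyma.06G054700 had 2589 and 2963 at stage 9 against 248, 611 and 1385 at stages 8.1, 8.2 and 8.3. All 5 class II genes rose in the 11-library and the fresh-seed fit, and none passed the 2-group test.

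Class I cytosolic proteins included more abundant transcripts that were nearer to their final level at stage 8.3. Glyma.13G175700, of class I, had 11664 and 13212 normalized counts at stage 9, against 425, 1549.6 and 10149 at stages 8.1, 8.2 and 8.3. The log2 fold change was 1.63 ± 1.04 in the 2-group test, which did not call it. Separately, the 11-library fit gave an adjusted p of 0.00166. Glyma.13G176200 of the same cluster had 3566 and 4465 at stage 9 against 112, 348 and 2106 at stages 8.1, 8.2 and 8.3, and Glyma.13G176000 had 7065 and 7460.5 at stage 9 against 279.8, 941 and 3782 at stages 8.1, 8.2 and 8.3. These 3 genes lie in a run of near-identical copies and are uncertain one by one. Glyma.01G106800, named HSP18.1B, had 2989.7 and 3199 normalized counts at stage 9, against 382, 1150.4 and 1376 at stages 8.1, 8.2 and 8.3, and DESeq2 called it on the 5 libraries at an adjusted p of 0.0428. The other gene of that name, Glyma.14G063700, followed another course, with 29192 and 31755 at stage 9 against 10755, 6582 and 36229 at stages 8.1, 8.2 and 8.3. Its neighbour Glyma.14G063800 had 23087 and 27536 at stage 9 against 9019.8, 8539 and 35270 at stages 8.1, 8.2 and 8.3. In both, stage 8.2 was the lowest library and stage 8.3 the highest, their log2 fold changes of 0.78 and 0.53 were 0.39 and 0.20 without stage 8.2, and neither was called in the 11-library fit.

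Small heat shock proteins of other compartments were also higher. The plastid protein HSP21 is encoded by 3 genes here. Glyma.04G229800 had 2914 and 3623 normalized counts at stage 9, against 283, 311 and 1582 at stages 8.1, 8.2 and 8.3, a log2 fold change of 2.17 ± 0.70. Glyma.08G318900, the gene of the primers above, had 414 and 529.7 at stage 9 against 24, 85 and 249 at stages 8.1, 8.2 and 8.3. Glyma.06G134900 had 4525 and 5126 at stage 9 against 759.5, 665 and 5187 at stages 8.1, 8.2 and 8.3, so that it had reached its stage 9 level at stage 8.3. All 3 were called in the 11-library fit, at adjusted p of 0.013, 0.0352 and 0.0308. The class IV proteins, which belong to the endoplasmic reticulum, gave 5137 and 5341 at stage 9 against 401, 1262 and 4904 at stages 8.1, 8.2 and 8.3 for Glyma.10G176400. For Glyma.20G213900 the levels were 2291 and 2034 at stage 9 against 144, 270.1 and 1577 at stages 8.1, 8.2 and 8.3. The peroxisomal member Glyma.14G214800 had 427 and 578 at stage 9 against 48, 166 and 392 at stages 8.1, 8.2 and 8.3. Glyma.16G206200, named Hsp22.5, was scarce at 125 and 95.4 at stage 9 against 4.8, 28 and 29.7 at stages 8.1, 8.2 and 8.3, and DESeq2 called it on the 5 libraries at an adjusted p of 0.0161. Glyma.08G212000 was among the most abundant of the family, with 32857 and 31567 normalized counts at stage 9, against 7659, 15562 and 25057 at stages 8.1, 8.2 and 8.3. That gave a log2 fold change of 1.00 ± 0.42. The single member with a negative value was Glyma.02G288700, named small heat shock protein C4, with 91 and 80.4 at stage 9 against 136, 175 and 102 at stages 8.1, 8.2 and 8.3 and a log2 fold change of -0.69 ± 0.28.

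Seen as a sum over the 28 genes, the level was 168989.9 and 187238 at stage 9, against 32536, 47912 and 155367 at stages 8.1, 8.2 and 8.3. Mature seed held 5.47 times the level of stage 8.1, 3.72 times that of stage 8.2 and 1.15 times that of stage 8.3. Stage 8.3 stood at 87.2% of the stage 9 mean. The median step was 1.70 on the log2 scale between stages 8.1 and 8.2, 1.57 between stages 8.2 and 8.3, and 0.70 between stage 8.3 and stage 9. Of the 28 genes, 22 were higher at every one of the 3 steps, beside 1525 of 26110 genes tested, or 5.84%. All 5 class II genes named above were lower at stage 8.3 than in either stage 9 library, while the abundant class I genes Glyma.14G063700 and Glyma.14G063800 were higher there.

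**Figure D2:**
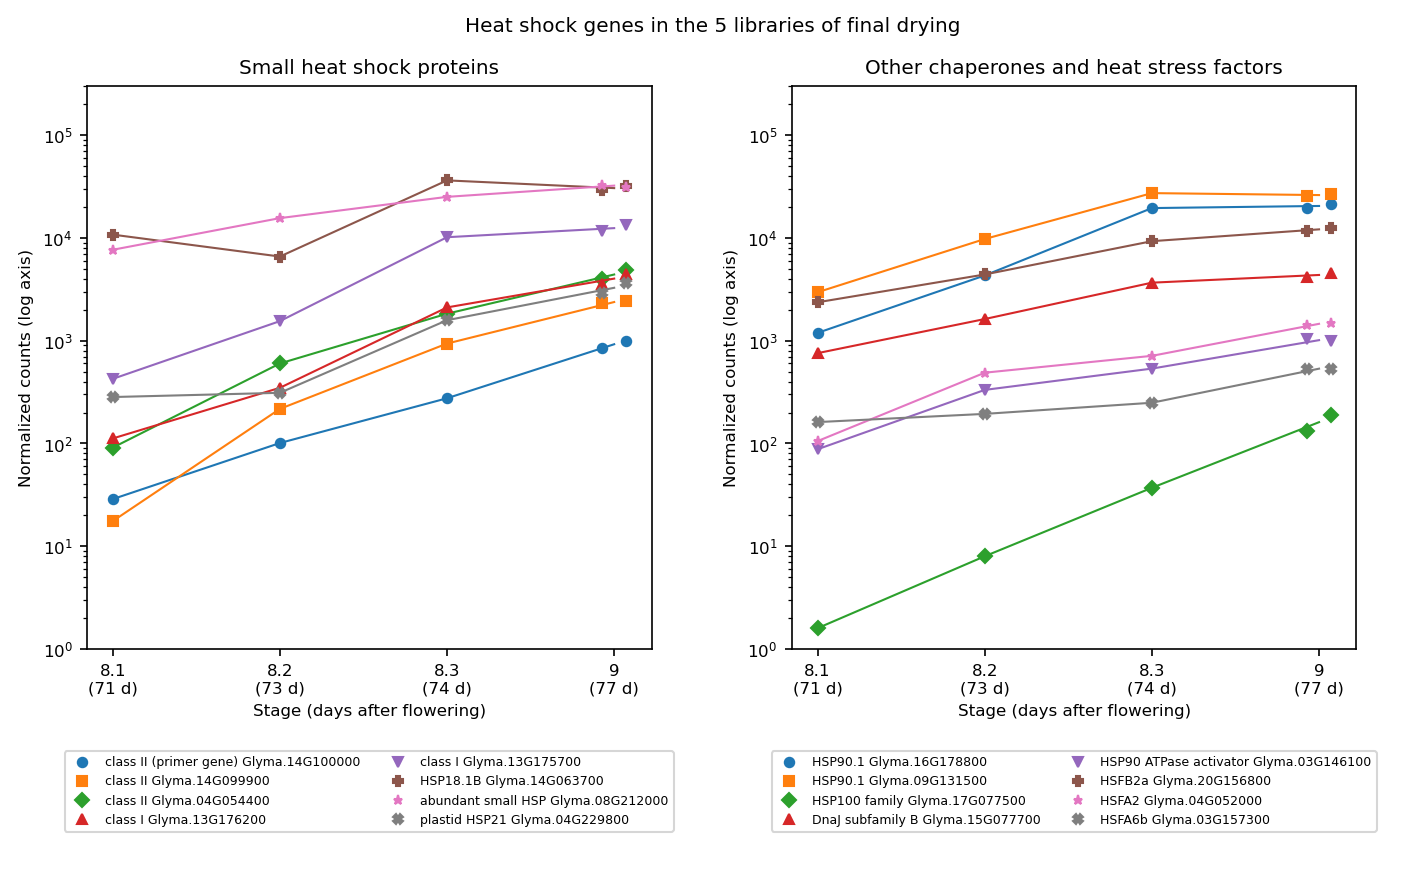
Normalized counts (log axis) of 8 small heat shock protein genes (left) and 8 genes of other chaperones and heat stress transcription factors (right) by stage, with days after flowering under each stage. Each point is 1 library, stage 9 has 2 points, and lines join the single libraries to the stage 9 mean; HSP17.6b Glyma.14G100000 had 848 and 998 normalized counts at stage 9, against 28.8, 101 and 275 at stages 8.1, 8.2 and 8.3.

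Among the larger chaperones the picture was mixed. Of 30 tested, 13 had both stage 9 libraries above all 3 earlier ones and 2 below, beside 15.2% and 15.5% over all genes, and the median log2 fold change was 0.39. None passed the 2-group test, and of the 34 tested in the fits by stage the 11-library fit called 4 higher and 0 lower and the fresh-seed fit 7 and 0. Over all genes these fits called 0.327% and 1.44% higher. Of the 35 listed, 28 appear in the table that the study chose on the stage 9 libraries, so this list is not independent evidence either. HSP101, Glyma.17G077500, the disaggregase that works with small heat shock proteins, had 132 and 191 normalized counts at stage 9, against 1.6, 8 and 37.1 at stages 8.1, 8.2 and 8.3. The gene had a log2 fold change of 3.28 ± 0.71 in the 2-group test, and the 11-library fit gave an adjusted p of 0.00764. HSP90.1, Glyma.16G178800, a chaperone of signalling proteins and of HSFs, had 19593 and 21267 normalized counts at stage 9, against 1191, 4309 and 19487 at stages 8.1, 8.2 and 8.3. A second HSP90.1 gene, Glyma.09G131500, had 25343 and 26808 at stage 9 against 2959.7, 9748 and 27245 at stages 8.1, 8.2 and 8.3. For the first gene stage 8.3 lay just below both stage 9 libraries, and for the second it lay above both. The DnaJ protein Glyma.15G077700, a cochaperone of HSP70, had 4144 and 4568 at stage 9 against 756, 1624 and 3666 at stages 8.1, 8.2 and 8.3. An activator of the HSP90 ATPase, Glyma.03G146100, had 1029 and 994 at stage 9 against 87.9, 332 and 535 at stages 8.1, 8.2 and 8.3, a log2 fold change of 1.66 ± 0.56. Summed over the larger chaperones, the level was 71361 and 77290.1 at stage 9, against 16303, 31065 and 73505 at stages 8.1, 8.2 and 8.3, so that stage 8.3 stood at 98.9% of the stage 9 mean.

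FK506-binding proteins, peptidyl-prolyl isomerases of which some bind HSP90, gave 3 named genes among the 113. Glyma.08G106700 had 260.5 and 302 normalized counts at stage 9, against 20.8, 76 and 123 at stages 8.1, 8.2 and 8.3, a log2 fold change of 1.90 ± 0.52. Glyma.05G149900 had 1659 and 2465 at stage 9 against 401, 756 and 1641 at stages 8.1, 8.2 and 8.3. Glyma.03G086200 had 6964 and 7802 at stage 9 against 1388, 2973 and 9436 at stages 8.1, 8.2 and 8.3, with stage 8.3 above both stage 9 libraries. These 3 were picked after their values were seen, and the 113 made up 0.327% of all genes tested in that fit. No list of the family was made, so members that were not called are not counted and nothing follows for the family.

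Heat stress transcription factors split into members that were higher and members that were not. Of 10 tested, 6 had both stage 9 libraries above the earlier ones and 0 below, beside 15.2% and 15.5% over all genes, with a median log2 fold change of 0.76. Of the 12 listed, 6 appear in the table that the study chose on the stage 9 libraries, so this list too is not independent evidence of its direction. HSFA6b, Glyma.03G157300, had 535 and 533 normalized counts at stage 9, against 162, 194 and 249 at stages 8.1, 8.2 and 8.3. Its log2 fold change was 1.40 ± 0.20, with a DESeq2 adjusted p of 0.000187 on the 5 libraries and an edgeR adjusted p of 0.518 in the 2-group test and 0.0167 in the 11-library fit. HSFA2, Glyma.04G052000, a factor that prolongs heat responses in Arabidopsis, had 1429.5 and 1488 normalized counts at stage 9, against 106, 488 and 712 at stages 8.1, 8.2 and 8.3, a log2 fold change of 1.74 ± 0.60. These 2 were the members called in the 11-library fit, and the fresh-seed fit called 5, of 12 tested in each. Over all genes these fits called 0.327% and 1.44% higher. A second HSFA6b gene, Glyma.10G029600, was scarce, with 22.5 and 41.4 at stage 9 against 4.8, 9 and 5.3 at stages 8.1, 8.2 and 8.3, and a second HSFA2 gene, Glyma.14G096800, had 123 and 106 at stage 9 against 11.2, 56 and 75.2 at stages 8.1, 8.2 and 8.3. HSFB2a, Glyma.20G156800, a class B factor, had 11778 and 12420 at stage 9 against 2363, 4405 and 9284 at stages 8.1, 8.2 and 8.3. The HSFA9 genes did not follow. Glyma.17G053700 had 4155 and 6269 normalized counts at stage 9, against 11962, 1545 and 5620 at stages 8.1, 8.2 and 8.3, with the highest level at stage 8.1, and a log2 fold change of -0.30 ± 0.71 whose sign changed without stage 8.1 and in the 11-library fit. The other, Glyma.13G105700, had 1488 and 1862 at stage 9 against 2619, 893 and 1587 at stages 8.1, 8.2 and 8.3. HSFA3, Glyma.03G191100, had 355 and 416 at stage 9 against 214, 351 and 348 at stages 8.1, 8.2 and 8.3, a log2 fold change of 0.33 ± 0.24 that passed no test.

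LEA proteins, which protect membranes and proteins in the dry state, were listed together with genes named as seed maturation proteins, and as a set they were abundant throughout. Of 14 tested, 3 had both stage 9 libraries above the earlier ones and 1 below, beside 15.2% and 15.5% over all genes, with a median log2 fold change of 0.43 that was 0.20 without stage 8.2. The median step was -0.99 between stages 8.1 and 8.2, 1.15 between stages 8.2 and 8.3 and 0.06 between stage 8.3 and stage 9. Seed maturation protein PM25, Glyma.20G147600, had 96434 and 113900 normalized counts at stage 9, against 82307, 43794 and 75648 at stages 8.1, 8.2 and 8.3. Glyma.10G027600, another LEA gene, had 71881 and 81990 at stage 9 against 61340, 32125 and 72689 at stages 8.1, 8.2 and 8.3, and Glyma.12G001600 had 25622 and 29762 at stage 9 against 27475, 9283 and 27172 at stages 8.1, 8.2 and 8.3. In these 3 the stage 8.2 library was the lowest, and their log2 fold changes of 0.64, 0.47 and 0.38 were 0.41, 0.20 and 0.02 without it. The fresh-seed fit called 2 of the 14 higher, beside 1.44% of all genes, and these 2 follow. The Lea14 homologue Glyma.07G064700 had 4087 and 4601 normalized counts at stage 9, against 2466, 1095 and 2396 at stages 8.1, 8.2 and 8.3, a log2 fold change of 1.13 ± 0.33 that was 0.84 without stage 8.2. Seed maturation protein PM36, Glyma.07G240700, had 904 and 1033 at stage 9 against 201, 293 and 945 at stages 8.1, 8.2 and 8.3, so that stage 8.3 lay between the stage 9 libraries. It was the member called in the 11-library fit, at an adjusted p of 0.0477. PM36 was listed by its name alone, and its Arabidopsis match is a haem oxygenase-like protein, not a LEA protein.

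Oleosins, the coat proteins of oil bodies, had a low stage 8.2 level too. The most abundant, Glyma.06G078700, had 8664 and 10823 normalized counts at stage 9, against 5089.5, 3298 and 10890 at stages 8.1, 8.2 and 8.3, and Glyma.04G077600 had 1046 and 1635 at stage 9 against 389, 258 and 1266 at stages 8.1, 8.2 and 8.3. Without stage 8.2 their log2 fold changes of 0.60 and 1.07 were 0.29 and 0.70. Of 4 oleosin genes tested, 1 had both stage 9 libraries above the earlier ones, beside 15.2% over all genes, and the median log2 fold change was 0.72, or 0.48 without stage 8.2. The 5 genes of raffinose family oligosaccharide synthesis, whose sugars accumulate in drying legume seeds, were not called in any of the 3 fits, and in none of them were both stage 9 libraries outside the range of the earlier ones. Raffinose synthase Glyma.06G179200 had 23771 and 24217 at stage 9 against 16038, 9504 and 25762 at stages 8.1, 8.2 and 8.3. Galactinol synthase Glyma.10G145300 had 19218 and 23397 at stage 9 against 24082, 11466 and 15309 at stages 8.1, 8.2 and 8.3. The log2 fold changes of this pair, 0.49 and 0.32, were 0.20 and 0.11 without stage 8.2. Stachyose synthase Glyma.19G217700 had 17491 and 19695 at stage 9 against 26153, 8417 and 16651 at stages 8.1, 8.2 and 8.3, and its log2 fold change of 0.12 ± 0.42 was -0.20 without stage 8.2.

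Water channels and hormone receptors gave single genes. Of 8 aquaporins tested, 2 lay above the earlier libraries in both stage 9 libraries and none below, beside 15.2% and 15.5% over all genes. Aquaporin Glyma.11G023200, of the plasma membrane PIP1 type, had 850.0 and 1065 normalized counts at stage 9, against 115, 179 and 1106 at stages 8.1, 8.2 and 8.3, and it was called in the 11-library fit at an adjusted p of 0.00854. PIP2-7, Glyma.13G325900, had 5602 and 6447 at stage 9 against 3217, 2910.1 and 4699 at stages 8.1, 8.2 and 8.3, a log2 fold change of 0.74 ± 0.23. In ABA signalling, which holds receptors of the PYL family and the protein phosphatases 2C that they inhibit, 17 genes were tested and the median log2 fold change was 0.19. Both stage 9 libraries lay above the earlier ones for 5 and below them for 3, beside 15.2% and 15.5% over all genes, and 10 log2 fold changes were positive and 7 negative. PYL6, Glyma.13G229300, had 15515 and 25229 normalized counts at stage 9, against 5101, 5838 and 10812 at stages 8.1, 8.2 and 8.3. This receptor gene had a log2 fold change of 1.49 ± 0.36, called by DESeq2 on the 5 libraries at an adjusted p of 0.0198, while its stage 9 libraries differed by more than 1.5-fold, within which 98.9% of the 14781 genes above lay. A second PYL6 gene, Glyma.15G083200, had 195 and 308 at stage 9 against 24, 32 and 139.9 at stages 8.1, 8.2 and 8.3.

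Histones had small differences in both directions. Of 16 tested, 0 had both stage 9 libraries above and 6 below the earlier ones, beside 15.2% and 15.5% over all genes, and 4 had an unadjusted p under 0.05 in the lower direction, with a median log2 fold change of -0.23. Histone H2B, Glyma.11G142100, had 604 and 609 normalized counts at stage 9, against 704, 983 and 816 at stages 8.1, 8.2 and 8.3, a log2 fold change of -0.47 ± 0.18. The one histone gene called in any of the 3 fits was higher, the H2B gene Glyma.11G191600, with 71.2 and 117 at stage 9 against 102, 18 and 44.5 at stages 8.1, 8.2 and 8.3 and an adjusted p of 0.00473 in the fresh-seed fit. In this gene stage 8.2 was the lowest library and stage 8.1 lay between the stage 9 libraries, so the groups overlapped. Of 5 nuclear photosynthesis genes tested, 0 lay above and 2 below the earlier libraries, against the same shares over all genes, with a median of 0.04. Photosystem I subunit XI, Glyma.18G241700, had 228 and 264 at stage 9 against 507, 420.1 and 473 at stages 8.1, 8.2 and 8.3, a log2 fold change of -0.93 ± 0.17, which was under the 2-fold limit. Cytosolic ribosomal proteins, with 11 tested, had a median of 0.20 and none called in any fit.

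Plastid-like genes gave the lowest median of all lists, -1.31 over 94 tested, yet both stage 9 libraries lay below all earlier ones for 1 gene and above them for 1. The median step was 2.35 between stages 8.1 and 8.2, -3.17 between stages 8.2 and 8.3 and 0.79 between stage 8.3 and stage 9. Without stage 8.2 the median was 0.32, so the direction of this list turned on a single library. The fresh-seed fit called 6 lower and 0 higher with stage 8.2, beside 0.712% and 1.44% of all genes, and 0 lower and 10 higher without it. The ATP synthase alpha gene Glyma.12G232000, a copy of a plastid gene, had 246 and 223 normalized counts at stage 9, against 339, 1217 and 128 at stages 8.1, 8.2 and 8.3, and its log2 fold change of -1.28 was 0.02 without stage 8.2. Such copies in the nuclear assembly share reads with the plastid genome, so they cannot be assigned to either. Whether the stage 8.2 level reflects the seeds or the library was not tested.

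**Figure D3:**
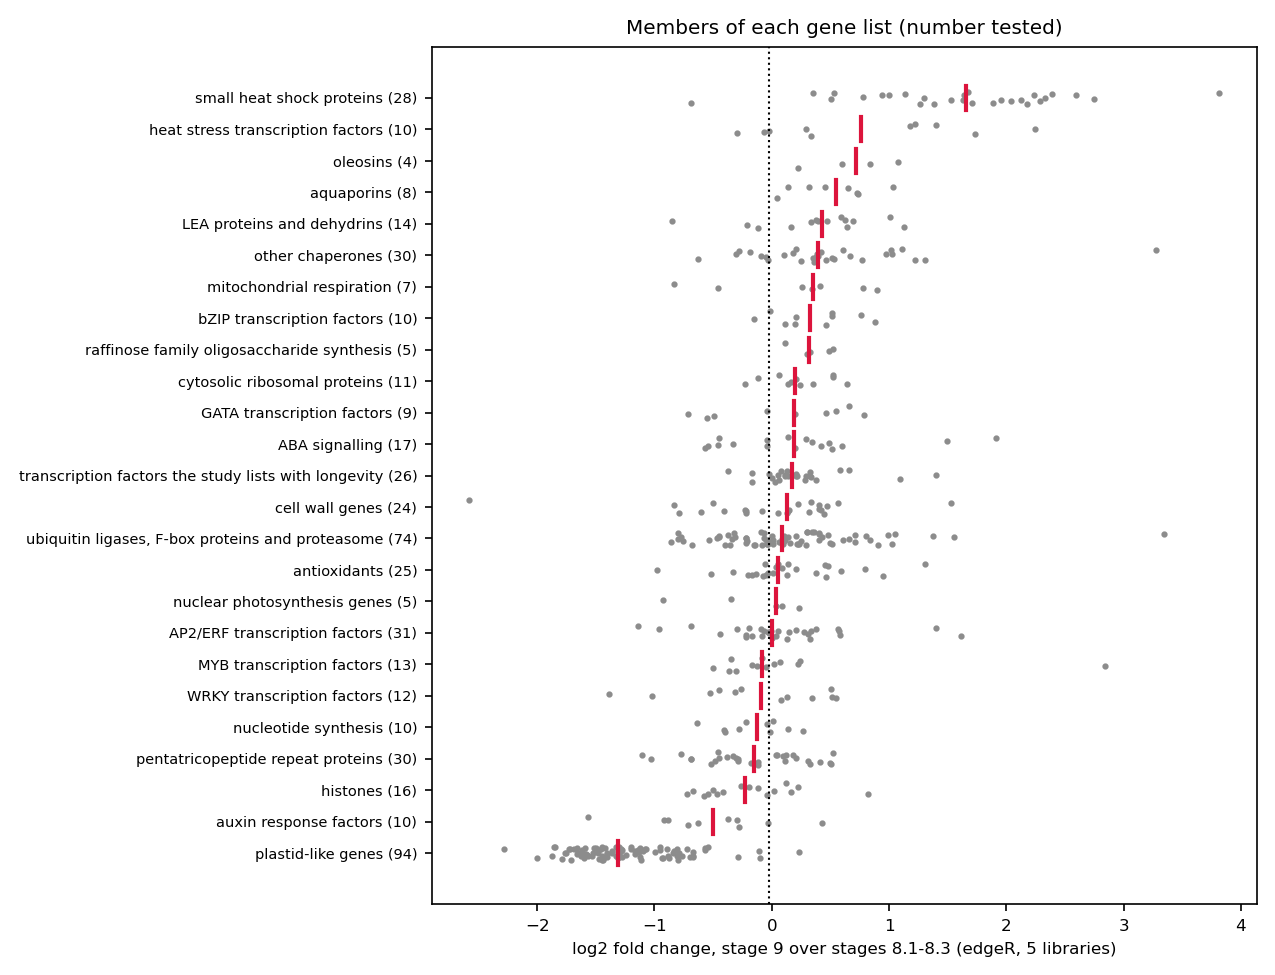
Log2 fold change of each tested member (grey points) of the 25 gene lists, stage 9 over stages 8.1 to 8.3 in the 2-group edgeR test, with the list median (red bar), the number tested in brackets and the median of all genes tested (dotted line, -0.02). Small heat shock proteins had the highest median, 1.66, and plastid-like genes the lowest, -1.31.

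**Figure D4:**
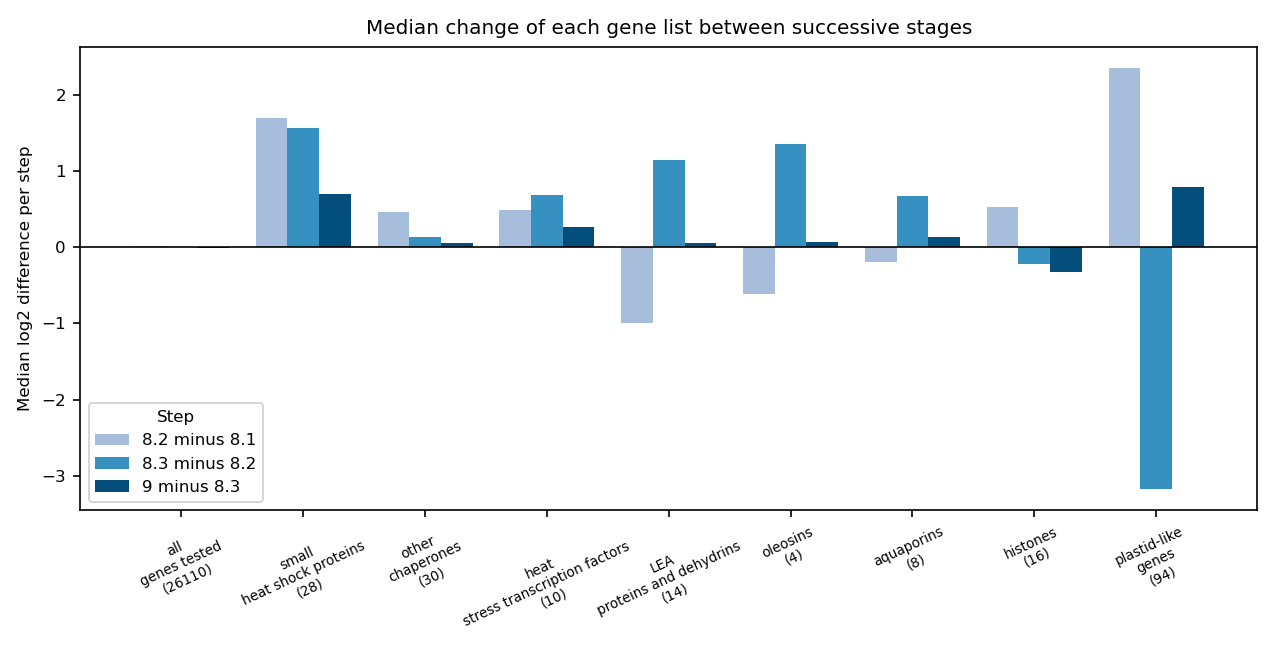
Median log2 difference of each gene list at the 3 steps between successive stages (1 library each at stages 8.1, 8.2 and 8.3, the mean of 2 at stage 9), with the number of genes tested in brackets and no test. Small heat shock proteins rise by 1.70, 1.57 and 0.70 in median, while LEA proteins, oleosins and plastid-like genes move in opposite ways into and out of stage 8.2.

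Further transcription factors came from a table of the study. Of 264 in the 2-group test, HSFs included, 38 lay above and 29 below the earlier libraries in both stage 9 libraries, or 14.4% and 11%, under the 15.2% and 15.5% over all genes. Of 533 tested in the fits by stage, the 11-library fit called 8 higher and 0 lower and the fresh-seed fit 18 and 3. Over all genes the shares were 0.327% and 0.0174% in the first of these fits and 1.44% and 0.712% in the second. A homeodomain-like factor, Glyma.13G149700, had 863 and 805 normalized counts at stage 9, against 128, 83 and 540.4 at stages 8.1, 8.2 and 8.3. Its log2 fold change was 1.73 ± 0.68 in the 2-group test, and the 11-library fit gave an adjusted p of 0.00306. The ethylene response factor gene Glyma.02G016100 had 951 and 763 at stage 9 against 144, 136 and 556 at stages 8.1, 8.2 and 8.3. Another ERF gene, Glyma.10G016500, had 161 and 182 at stage 9 against 12.8, 16 and 162 at stages 8.1, 8.2 and 8.3. A pair of LOB domain genes, of a plant family of developmental regulators, was low at stages 8.1 and 8.2. Glyma.13G046300 had 639 and 361 normalized counts at stage 9, against 4.8, 5 and 567 at stages 8.1, 8.2 and 8.3, and Glyma.19G046300 had 607 and 347 at stage 9 against 25.6, 29 and 502 at stages 8.1, 8.2 and 8.3. In both, stage 8.3 lay between the stage 9 libraries. The bHLH gene Glyma.12G042800 had 271 and 345 at stage 9 against 72, 35 and 705 at stages 8.1, 8.2 and 8.3, so that its single high point was stage 8.3. A list of 26 transcription factors was taken from a column of that table on seed longevity, which was derived from libraries that include these 5, and it may not hold the whole set discussed in the study. Of the 26, 9 lay above and 2 below, beside 15.2% and 15.5% over all genes. In the 11-library fit 1 was called higher, beside 0.327% of all genes. The EIN3-like gene Glyma.05G180300, of the ethylene pathway, had 1301 and 853 at stage 9 against 307, 532 and 666 at stages 8.1, 8.2 and 8.3. The GATA factor Glyma.17G228700 had 395 and 484 at stage 9 against 264, 291 and 275 at stages 8.1, 8.2 and 8.3, a log2 fold change of 0.66 ± 0.16.

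The 113 genes of the 11-library fit had covered most of their change by stage 8.3. Their median level at stages 8.1, 8.2 and 8.3 was 15.3%, 22% and 67.7% of the stage 9 mean. Both stage 9 libraries lay above all earlier ones for 91 of the 113, beside 15.2% over all genes tested. Stage 8.3 lay above both for 8, beside 10782 of 26110 genes, and 74 were higher at every step, beside 5.84%. The 113 were chosen by their levels in these same libraries, so these counts and the timing largely follow from the choice and are not separate evidence. A name was found for 50 of them and none for 63, and 23 of the named genes were small heat shock proteins or larger chaperones. Of these lists, 27 of 28 and 28 of 35 genes appear in a table that the study chose on the stage 9 libraries. The 23 thus reflect in part which genes could be named. The unnamed gene Glyma.07G200000, of a tandem cluster with uncertain separate counts, had 4082 and 4933 at stage 9 against 114, 710.3 and 2122 at stages 8.1, 8.2 and 8.3. Glyma.12G048000, also unnamed, had 181 and 202 at stage 9 against 4.8, 0 and 146 at stages 8.1, 8.2 and 8.3. A kelch repeat gene, Glyma.16G062000, had 632 and 602 at stage 9 against 33.6, 58 and 618 at stages 8.1, 8.2 and 8.3. The RING-H2 finger gene Glyma.04G021200, of a ubiquitin ligase family, had 1462 and 1318 at stage 9 against 333, 492 and 1188 at stages 8.1, 8.2 and 8.3. Glyma.05G068500, named as senescence-associated, had 10635 and 11426 at stage 9 against 3099, 2702 and 10680 at stages 8.1, 8.2 and 8.3. The glyceraldehyde 3-phosphate dehydrogenase gene Glyma.18G009700 had 1468 and 1509 at stage 9 against 195, 72 and 2428 at stages 8.1, 8.2 and 8.3, again with its highest level at stage 8.3.

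Some genes differed at stage 9 from all 3 earlier libraries with a large part of the difference after stage 8.3. They were picked after their values were seen, largely from the DESeq2 calls on the 5 libraries. The unnamed gene Glyma.14G156300 had 247 and 228 normalized counts at stage 9, against 52.8, 46 and 66.8 at stages 8.1, 8.2 and 8.3. Its log2 fold change was 2.10 ± 0.22 in the 2-group test, which did not call it, with a DESeq2 adjusted p of 3.08e-08 on the 5 libraries. HSFA6b, given above, was at 30.2%, 36.3% and 46.6% of its stage 9 mean at the 3 earlier stages. Cytochrome c oxidase subunit 6B, Glyma.11G040300, a part of the mitochondrial respiratory chain, had 1210.5 and 1248 at stage 9 against 724, 513 and 742 at stages 8.1, 8.2 and 8.3, a log2 fold change of 0.89 ± 0.19. Of 7 mitochondrial respiration genes tested, it was the 1 above the earlier libraries and 2 lay below them, beside 15.2% and 15.5% over all genes. No gene of that list was called in any fit. The other genes picked here had also moved between the earlier stages. The unnamed Glyma.15G013300 was abundant, with 5466 and 5121 at stage 9 against 1055, 984 and 2186 at stages 8.1, 8.2 and 8.3. Glyma.11G246600 had 961 and 1566 at stage 9 against 184, 159 and 475 at stages 8.1, 8.2 and 8.3. A UDP-glucosyl transferase gene, Glyma.16G175200, had 4051 and 3044 at stage 9 against 1524, 1553 and 2013 at stages 8.1, 8.2 and 8.3. Cold tolerant protein genes gave 4936 and 6266 at stage 9 against 2322, 1108 and 2522 at stages 8.1, 8.2 and 8.3 for Glyma.06G299000. For Glyma.06G297800 the levels were 1725 and 2412 at stage 9 against 1105, 359 and 859 at stages 8.1, 8.2 and 8.3. Both were lowest at stage 8.2, and their log2 fold changes of 1.5 and 1.42 were 1.21 and 1.08 without it. An F-box gene, Glyma.07G190100, had 4758 and 7326 at stage 9 against 1164, 1426 and 3582 at stages 8.1, 8.2 and 8.3, with part of the difference already there at stage 8.3.

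Lower genes were fewer in name. NADH glutamate synthase, Glyma.04G236900, an enzyme of ammonium assimilation, had 258 and 276 normalized counts at stage 9, against 643, 546 and 619 at stages 8.1, 8.2 and 8.3. The difference was -1.18 ± 0.16 on the log2 scale in the 2-group test, at an edgeR adjusted p of 0.518 there and 0.126 in the 11-library fit. DESeq2 on the 5 libraries gave an adjusted p of 0.000173. The unnamed Glyma.02G309500 had 172 and 198 at stage 9 against 429, 365 and 466 at stages 8.1, 8.2 and 8.3, a log2 fold change of -1.19 ± 0.18. Glyma.10G048800, also unnamed, had 114 and 137 normalized counts at stage 9, against 235, 356 and 423 at stages 8.1, 8.2 and 8.3, and it was 1 of the 6 genes called lower in the 11-library fit, at an adjusted p of 0.0227. Glyma.01G096600, another of the 6, was lower at every step, with 41.5 and 56.3 at stage 9 against 233, 167 and 74.2 at stages 8.1, 8.2 and 8.3. The microtubule-associated protein gene Glyma.11G249900, of the MAP65 family that bundles microtubules, had 127 and 80.4 at stage 9 against 146, 295 and 269 at stages 8.1, 8.2 and 8.3. The pentatricopeptide repeat gene Glyma.17G153900, of a family that processes organelle RNA, had 98.2 and 140.2 at stage 9 against 342, 252 and 173 at stages 8.1, 8.2 and 8.3. The last pair was called lower in the fresh-seed fit, at adjusted p of 0.00104 and 0.000356.

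**Figure D5:**
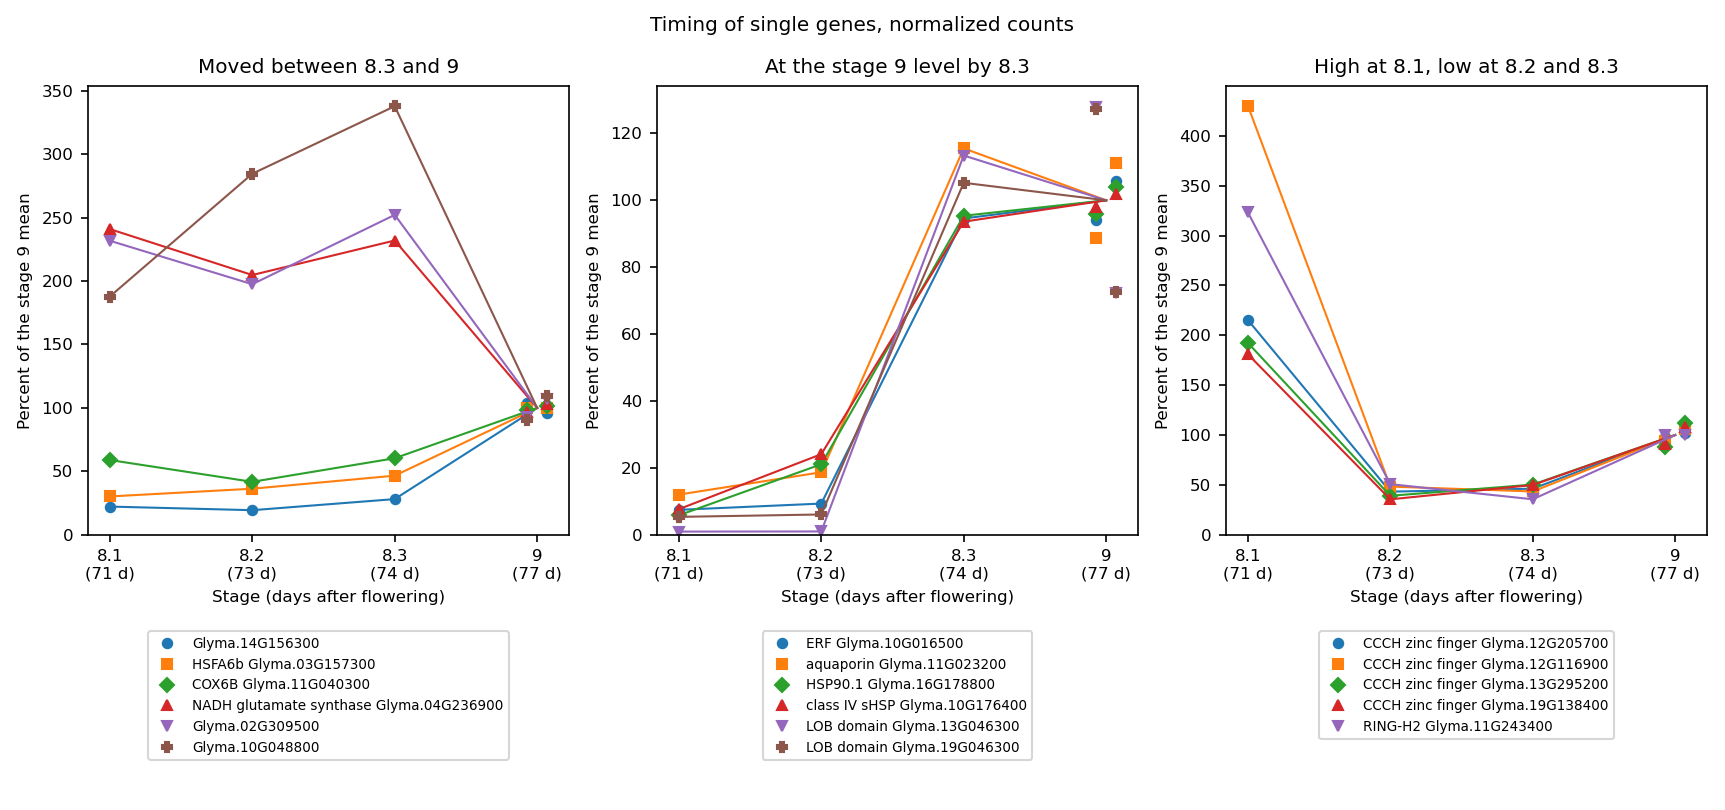
Level of single genes by stage as a percent of the stage 9 mean, with days after flowering under each stage, 1 point for each library and lines to the stage 9 mean. Genes that moved between stages 8.3 and 9 (left), genes at the stage 9 level by stage 8.3 (centre) and genes high at stage 8.1 and low at stages 8.2 and 8.3 (right); Glyma.14G156300 stood at 22.2%, 19.4% and 28.1% of its stage 9 mean at stages 8.1, 8.2 and 8.3.

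The last step alone, stage 9 against stage 8.3, was tested in the 11-library fit, where the single library of stage 8.3 is assumed to vary like the replicate pairs. In that fit stage 9 against stage 8.1 alone gave 153 genes higher and 74 lower, 0.442% and 0.214% of 34577, and against stage 8.2 alone 119 and 65, 0.344% and 0.188%. Against stage 8.3 it called 0% of the genes in either direction, with a smallest adjusted p of 0.477 and 5.58% at an unadjusted p under 0.05. DESeq2 called 9 higher and 4 lower, 0.0614% and 0.0273% of 14664 genes. The fresh-seed fit, chosen after these values were seen, called 216 higher and 116 lower, 0.628% and 0.337% of 34410. These counts were 0 and 0 without replicate 1 of stage 9 and 188 and 131 without replicate 2, so they depended on replicate 1 of stage 9. They were 326 and 238 or 325 and 235 without 1 of the fresh libraries of stage 7.2. The 11-library fit called 201 and 105 or 188 and 92 in this step without 1 of the dried libraries.

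Small heat shock proteins were again present in the fresh-seed fit of the last step, with 10 of 28 called higher and 0 lower, beside 0.628% and 0.337% of all genes. Without replicate 1 of stage 9 none was called, and without replicate 2 there were 6. HSP17.6b, Glyma.14G100000, had a log2 fold change over stage 8.3 of 1.77 ± 0.17 at an adjusted p of 0.000136, and DESeq2 called it at 0.0323. Glyma.01G106800 had 1.20 ± 0.12 and HSP101, Glyma.17G077500, had 2.13 ± 0.35 on the same scale. HSFA2, Glyma.04G052000, had 1.06 ± 0.12 and HSFA6b, Glyma.03G157300, had 1.13 ± 0.15. The abundant class I gene Glyma.13G175700 had 0.32 ± 0.13, and HSP90.1, Glyma.16G178800, had 0.10 ± 0.13. Neither of these last genes passed.

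Among zinc finger genes of the C-x8-C-x5-C-x3-H type, proteins of a family that binds RNA, 4 genes picked for this course were highest at stage 8.1, low at stages 8.2 and 8.3, and intermediate at stage 9. Glyma.12G205700 had 5299 and 5540.5 normalized counts at stage 9, against 11672, 2344 and 2506 at stages 8.1, 8.2 and 8.3. Over stage 8.3 alone the log2 fold change was 1.14 ± 0.14 in the fresh-seed fit, and DESeq2 called it at an adjusted p of 0.0323. Glyma.12G116900 had 335 and 377 at stage 9 against 1532, 172 and 155 at stages 8.1, 8.2 and 8.3. Glyma.13G295200 had 827 and 1051 at stage 9 against 1807, 367 and 473 at stages 8.1, 8.2 and 8.3, and Glyma.19G138400 had 1852 and 2198 at stage 9 against 3666, 720.3 and 1011 at stages 8.1, 8.2 and 8.3. All 4 were called higher over stage 8.3 in the fresh-seed fit, while their stage 9 levels stayed under those of stage 8.1. The RING-H2 gene Glyma.11G243400 had the same course, with 571 and 571 at stage 9 against 1847, 290.1 and 203 at stages 8.1, 8.2 and 8.3. The homeobox-leucine zipper gene ATHB-7, Glyma.06G133800, an ABA- and drought-responsive factor in Arabidopsis, had 122 and 140.2 at stage 9 against 201, 77 and 51.9 at stages 8.1, 8.2 and 8.3. These genes were picked after their values were seen.

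Other genes were highest at stage 8.3 and lower at stage 9. The 34 kDa maturing seed protein Glyma.08G116300, a papain-like protein of soybean seed, had 7369 and 8065 normalized counts at stage 9, against 8703, 8913 and 17390 at stages 8.1, 8.2 and 8.3. Against stage 8.3 alone the log2 fold change was -1.14 ± 0.22 at an adjusted p of 0.0103 in the fresh-seed fit. Its neighbour Glyma.08G116400 had 256 and 325 at stage 9 against 357, 288 and 610.3 at stages 8.1, 8.2 and 8.3. A drought-induced protein gene, Glyma.16G037900, had 6429 and 6603 at stage 9 against 8289, 4914 and 14271 at stages 8.1, 8.2 and 8.3. The homologues of DREB2A-interacting protein 2, ubiquitin ligases that mark the drought factor DREB2A for degradation in Arabidopsis, were Glyma.03G159500 and Glyma.19G161700. The first had 86.5 and 105 at stage 9 against 152, 63 and 224 at stages 8.1, 8.2 and 8.3. Glyma.19G161700 had 57.7 and 98.8 at stage 9 against 95.9, 55 and 262 at stages 8.1, 8.2 and 8.3, a log2 fold change over stage 8.3 of -1.74 ± 0.27. NADH glutamate synthase, Glyma.04G236900, also fell in this step in the fresh-seed fit, by 1.19 on the log2 scale.

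Some genes that were higher over stage 8.3 also had their peak in the stage 8.2 library. The retrotransposon gene Glyma.05G084500 had 826 and 674 at stage 9 against 107, 1777 and 244 at stages 8.1, 8.2 and 8.3, and the plastid PsbA fragment Glyma.11G162200 had 172 and 129 at stage 9 against 32, 614 and 59.3 at stages 8.1, 8.2 and 8.3. They shared the stage 8.2 peak with the plastid-like genes described above, and the part of the library in it was not tested.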

How the data were processed

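RNA of whole soybean seeds was sequenced by the study in 11 libraries, of which 5 were compared here. After trimming of adaptors and a filter on sequence complexity, the authors aligned the reads to the Williams 82 soybean reference using Bowtie2 and deposited raw whole-number counts, with 1 transcript standing for each of 56044 genes. The counting program is not given in the sources used here. The line without a gene name held 0 counts and stayed out. Column names matched the sample labels, and no other columns of samples were present.

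Genes were tested with edgeR 4.0.16 in R 4.3.3 (TMM scaling, filterByExpr, glmQLFit, two-sided F test) and, as an alternative, with DESeq2 1.42.0. Calls needed a log2 fold change of at least 1 in size with p under 0.05 after Benjamini-Hochberg adjustment. The 2-group test used 5 libraries with 3 residual degrees of freedom, the stage 8.3 comparison and the by-stage alternative all 11, and the fresh-seed fit 9. Standard errors are the log2 fold change divided by the root of F. Fits were also run on simulated data, but no outcome of that run is given here. The run therefore does not show how well any fit handles the stage differences and the spread of the real libraries. Levels are counts over DESeq2 size factors of 11 libraries. Steps used a pseudocount of 1. Depth is given by the totals per library, and counting error is larger for genes under about 10 counts.

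Names come from the study's supplementary tables, because the reference table shares no identifier with the counts, so many genes have no name and no promoter, protein or storage protein list was used here. The tables were drawn partly from the stage 9 libraries. The rule for named genes took the 10 largest called changes in each direction among genes averaging 100 normalized counts or more, the 5 largest among transcription factors with at least 20, up to 2 per list and direction, the genes given by identifier in the study and the 10 most abundant genes. As the 2-group test called none, the rule was applied to the 11-library and DESeq2 calls, and further genes of these and the fresh-seed calls were picked after their values were seen. The most abundant genes have no name in the tables and are not described. The members and lists were chosen with earlier results of these data known.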

Additional observations from a re-analysis of the deposited data

How the results depend on the processing

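In the 2-group edgeR test no gene was called with DESeq2 size factors, with at least 10 counts in every library, at an adjusted p under 0.01, without the fold threshold, or without stage 8.1, stage 8.2 or either stage 9 library. DESeq2 called 31 higher and 18 lower, no low-count filter gave 39 and 6, the 11-library fit by stage gave 113 and 6, and leaving out single libraries gave 0 to 123 higher and 0 to 5 lower, the highest without stage 8.3. For the 11-library fit, DESeq2 gave 208 and 18, an adjusted p under 0.01 gave 20 and 0, the 9 freshly harvested libraries gave 497 and 245, and leaving out single libraries gave 0 to 496 higher and 0 to 226 lower, the lowest without stage 8.1 or replicate 2 of stage 9 and the highest without a dried library. For the fresh-seed fit, an adjusted p under 0.01 gave 368 and 110, and leaving out single libraries gave 351 to 848 higher and 36 to 662 lower. Against stage 8.3 alone, the 11-library edgeR fit called 0 and 0, and 0 to 201 higher and 0 to 105 lower without single libraries, DESeq2 9 and 4 and the fresh-seed fit 216 and 116, or 132 and 60 at an adjusted p under 0.01; without single libraries the fresh-seed counts were 0 to 326 higher and 0 to 238 lower, the lowest without replicate 1 of stage 9 and the highest without a fresh stage 7.2 library. The fresh-seed fit, and the other alternatives to the fits by stage apart from those against stage 8.3, were chosen after seeing the data, as were the omissions of libraries other than stage 9 in the comparison with stage 8.3. The cause of these differences was not tested. Of 1191 pairs of a gene named in the text and an alternative, 983 kept direction and side of the threshold, 199 came to pass it and 9 reversed in sign. Neither the 2-group test nor the 11-library comparison with stage 8.3 called a gene, so no pair could drop below the threshold. The bHLH gene Glyma.12G042800 reversed without stage 8.1 and without stage 8.2, though the 11-library fit called it at a log2 fold change of 1.35. The by-stage fit gave 0.15 for the HSFA9 gene Glyma.17G053700 and 0.12 for the HSFA9 gene Glyma.13G105700. With single libraries left out, the log2 fold change ranged over -0.76 to 0.56 for Glyma.17G053700, -0.33 to 0.45 for Glyma.13G105700, -0.20 to 0.59 for stachyose synthase Glyma.19G217700, -1.76 to 0.020 for the plastid-like Glyma.12G232000 and -0.34 to 2.56 for the bHLH gene Glyma.12G042800. Of 250 list medians under an alternative, 211 moved by less than the spread between the stage 9 libraries. No paired analysis was possible because stages 8.1, 8.2 and 8.3 have 1 library each and share fewer than 2 replicate numbers with stage 9.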
